A study of Homo sapiens with 12 samples.

Results

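The transcripts of 10 genes that build centrioles and centrosomes were followed in HCT116 cells, a human colorectal carcinoma line. The genes are PLK4, CEP192, CEP152, STIL, SASS6, CEP135, CENPJ, PCNT, CDK5RAP2 and NEDD1. They were chosen by name, with earlier results of these data known, and they are 10 of the 58233 genes in the table of read counts. All 10 had enough reads to be tested, as did 16657 genes in total. The parental HCT116 Tet-OsTIR1 cells carry rice TIR1 at both AAVS1 alleles, where doxycycline (Dox) switches it on. In the SDS22-degron cells, which were derived from this line, both alleles of PPP1R7 encode SDS22 fused to mAID-mClover, so that TIR1 together with the auxin IAA sends the protein to the proteasome. SDS22 is a regulatory partner of protein phosphatase 1. Each line was left untreated or kept for 48 h in 2 µg/ml Dox and 500 µM IAA, with 3 biological replicates in each of the 4 groups and 12 libraries in all. The parental cells therefore received the same drugs and carry the same TIR1, but no tagged SDS22. The SDS22-degron line was expanded from single colonies, so that differences between the untreated lines can belong to the clone as well as to the tag.

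A centrosome holds a pair of centrioles inside a coat of pericentriolar material, from which microtubules grow. Each centriole is copied during S phase, and the resulting centrosomes form the poles of the spindle at mitosis. The scaffold proteins CEP192 and CEP152 bring the kinase PLK4 to the wall of the parent centriole, and PLK4 phosphorylates STIL, which recruits SASS6 to form the cartwheel of the new centriole. CEP135 links the cartwheel to the microtubule wall, and CENPJ (also named CPAP) binds tubulin and sets the growth of the wall. PCNT and CDK5RAP2 are scaffolds of the pericentriolar material, and NEDD1 docks the γ-tubulin ring complex that starts microtubules. In proliferating cells, the transcripts of several of these genes rise and fall with the cell cycle.

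The promoters of these genes are shown first. RefSeq promoter windows (GRCh38.p14, 250 bases before to 50 bases after a transcript start) were found for 10 of the 10 genes and numbered 14 in all, because PLK4, PCNT and NEDD1 have more than 1 start. Windows were searched on both strands for letters known from cell cycle promoters, namely TTTGAA (the cell cycle genes homology region, CHR), CCAAT, and TTTCCCGC or TTTGGCGC (E2F). TTTGAA was present in 5 of the 14 windows, those of 5 different genes, against 15.2% of 35116 windows of all genes. CCAAT was present in 6 of the 14 windows against 34.6% of all windows, and an E2F motif in 2 of the 14 against 2.3%. None of the printed matches overlapped another of these motifs, and neither CENPJ nor NEDD1 held any of them. These are matches of letters and not measured sites. The genes with TTTGAA include PLK4, which fell the most below, and CEP192 and CEP135, which fell the least. Windows of STIL, SASS6 and CENPJ lacked it. Whether the motifs have a part in the changes was not tested. The 5 stretches with TTTGAA are printed below in the direction of the gene, with the motif or its reverse complement TTCAAA in capitals. The stretch of SASS6 holds the reverse complement of an E2F motif, also in capitals. The other E2F motif, TTTCCCGC, lies in the window of CEP192 and is not printed.
PLK4, chr4:127880913-127880942, plus strand: ggcaagcggcgggagattTTCAAAatggga
CEP192, chr18:12991156-12991185, plus strand: cggcttcctcgcTTCAAAtccaggaacgcg
CEP152, chr15:48811231-48811260, minus strand: ctggcgcccgctTTCAAAcagccgtacttt
CEP135, chr4:55948936-55948965, plus strand: ctccgcgccattTTCAAActgctctagcgc
CDK5RAP2, chr9:120580118-120580147, minus strand: cgggaaagatggcggcgtctgtggTTTGAA
SASS6, chr1:100132898-100132927, minus strand: cgcagaagccgaGCGCCAAActcaaacttt
With the first transcribed base counted as position 1, the motif of PLK4 begins at position 39, that of CEP135 at 4 and that of CDK5RAP2 at 45. Only 1 of the 3 windows of PLK4 holds TTTGAA, and its position is counted from the start of that window's transcript. In CEP192 and CEP152 the motif begins at positions -194 and -179, before the start.

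Library totals over all genes ran from 12133915 to 14657508 reads. The transcript of PPP1R7 was not called in any comparison (log2 fold change with Dox/IAA in SDS22-degron cells 0.12), the degron acting on the protein, and its mean lay between 43.7 and 47.9 CPM (reads of a gene scaled to library size with TMM factors, as in all values below) in the 4 groups. These RNA data therefore do not show whether SDS22 was lost. Markers of colorectal epithelium were present, for example EPCAM at 269 to 293 CPM. Of 5 such markers, KRT8 and KRT18 were lower after treatment in both lines (log2 fold changes -0.33 and -0.29 in SDS22-degron, -0.39 and -0.47 in parental cells). CDH1 was higher in both (1.00 and 0.36), with an interaction of 0.64 (adjusted p = 0.029), and the part of these changes in the results below was not tested. The leukocyte gene PTPRC and the endothelial gene PECAM1 had at most 1 read in any library, COL1A2 had 0 and the fibroblast gene COL1A1 had group means of 11.5 to 27.8 CPM and was higher after treatment in both lines. Replicate 2 of the treated parental cells stood apart for these 10 genes, with a summed level of 602 CPM against 481 and 516 CPM in the other treated parental libraries. Untreated parental replicate 2 was also the highest of its group, though by less, at 574 CPM against 568 and 536 CPM. Results that rest on this library are also given without it.

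Dox/IAA lowered all 10 transcripts in SDS22-degron cells. PLK4 fell the most, to 39.0% of its untreated level, followed by STIL and SASS6 at 47.6% and 48.1%, and CEP135 and CEP192 fell the least, to 78.6% and 78.0%. The 10 genes had a median log2 fold change of -0.65, while the median of all tested genes was 0.0046. A gene was called when its adjusted p in the quasi-likelihood test of edgeR was under 0.05, and 10 of 10 were called lower and 0 higher, against 25.5% and 26.0% of the tested genes. In each of the 10 genes, the 3 treated SDS22-degron libraries also lay below every other library of the series, as was the case for 16.5% of tested genes. Groups that did not overlap in this direction occurred in 29.7% of tested genes in this comparison. RNA was not measured in single cells, so that fewer cells in the cycle phase that uses a gene and less of its RNA in each cell cannot be told apart. The paper reports floating cells after SDS22 depletion, and it does not say whether these were collected for RNA.

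**Figure D1:**
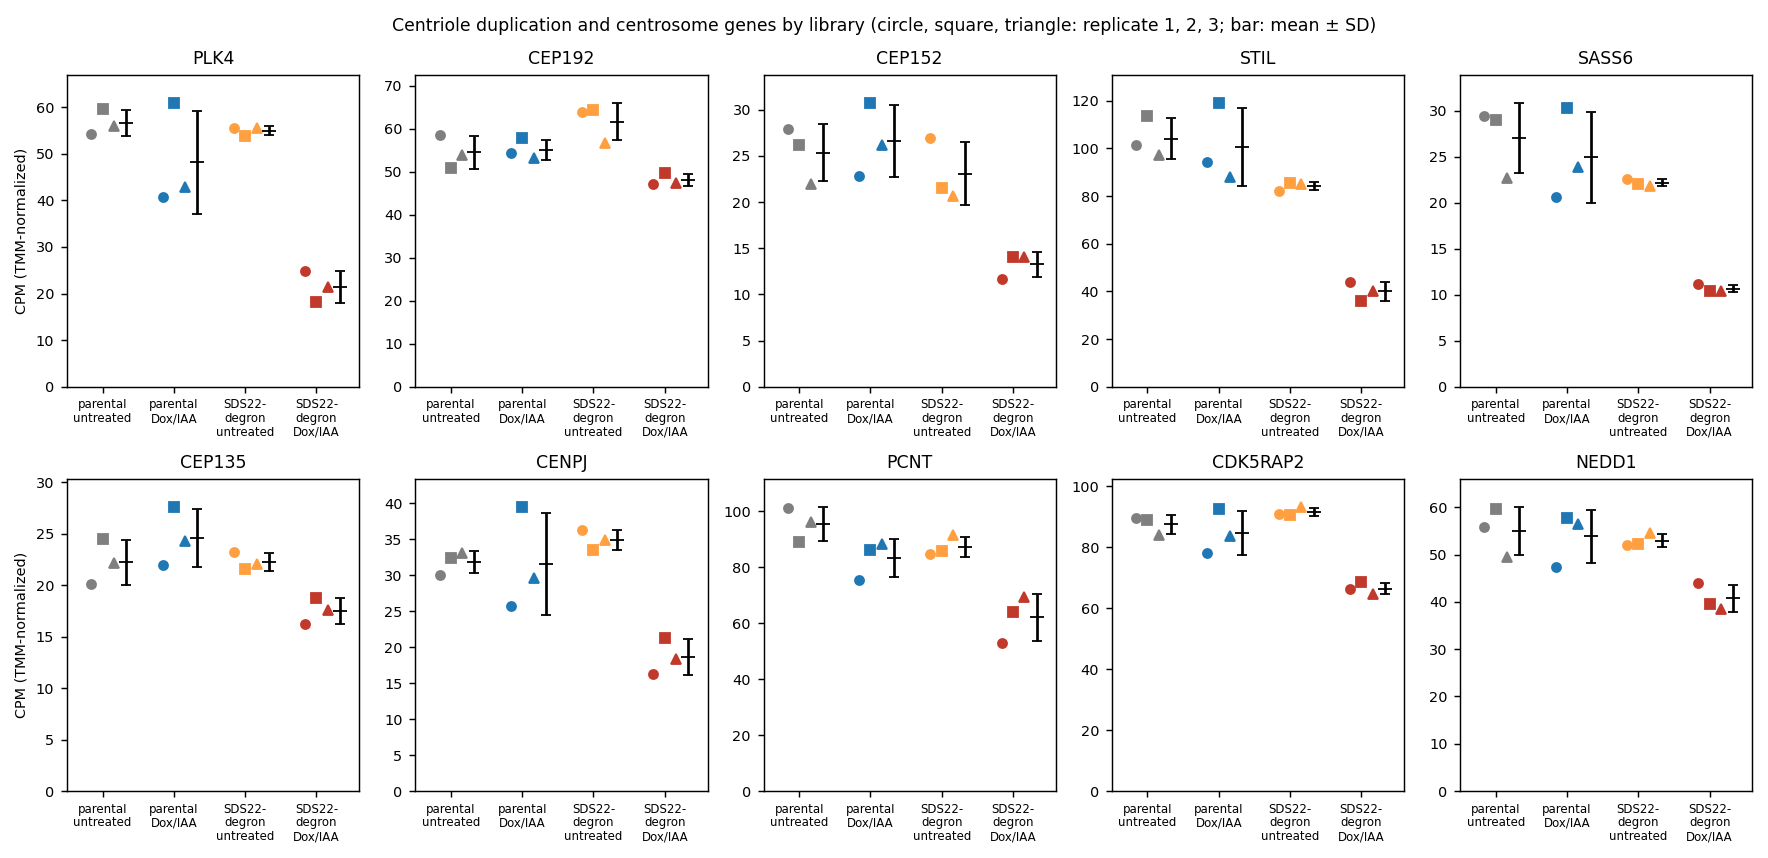
TMM-normalized CPM (vertical axis, from 0) of each of the 10 genes in the 12 libraries, by group (horizontal axis); circles, squares and triangles are replicates 1, 2 and 3, and bars give the mean ± SD (n = 3). In each panel the treated SDS22-degron libraries are the lowest, as for PLK4 at 18.1 to 24.8 CPM against 40.7 CPM or more elsewhere.

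Among the genes that start duplication, PLK4 (chr4:127880861-127899195 in the deposited table, GRCh38, plus strand) is the kinase that licenses the new centriole. It was measured at 55.6, 53.9 and 55.4 CPM in untreated and at 24.8, 18.1 and 21.3 CPM in treated SDS22-degron cells. The parental cells had 54.3, 59.6 and 56.0 CPM untreated and 40.7, 60.9 and 42.8 CPM treated. The SDS22-degron groups were far apart, whereas treated parental replicate 2 lay above the untreated parental cells and the other 2 replicates lay below them. The log2 fold change with Dox/IAA was -1.36 in SDS22-degron cells (SE 0.13, adjusted p = 1.14e-07) and -0.23 in parental cells (SE 0.12, adjusted p = 0.152, edgeR). Without treated parental replicate 2, the parental value was -0.44 (adjusted p = 0.00222, edgeR), so that the call in parental cells depended on this library. This fit kept untreated parental replicate 2, the highest of its group for PLK4. With all libraries and the replicate number as a block, the parental value was -0.24 (adjusted p = 0.117, edgeR).

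CEP152 (chr15:48712928-48811146, minus strand), the scaffold that hands PLK4 to the site of duplication, was at 27.0, 21.5 and 20.7 CPM in untreated and then at 11.7, 14.1 and 14 CPM with Dox/IAA. In parental cells it was at 27.9, 26.2 and 21.9 CPM untreated and at 22.9, 30.7 and 26.2 CPM treated. Its groups did not overlap in SDS22-degron cells and overlapped in parental cells. The log2 fold changes were -0.80 (SE 0.14, adjusted p = 7.59e-05) and 0.07 (adjusted p = 0.719). A processed pseudogene on the opposite strand, with a median of 76 reads against 309 for CEP152, overlaps this gene, and how the counting used strand is not given in the sources used here.

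CEP192 (chr18:12991362-13125052, plus strand), which acts upstream of CEP152 and also in the pericentriolar material, changed less. It was at 63.9, 64.4 and 56.6 CPM in untreated and at 47.2, 49.7 and 47.4 CPM in treated SDS22-degron cells. The parental values were 58.6, 51.0 and 53.9 CPM untreated and 54.4, 57.8 and 53.2 CPM treated. The 2 SDS22-degron groups were separate, although the treated group ended only just below the lowest parental library. The log2 fold change was -0.36 in SDS22-degron cells (SE 0.07, adjusted p = 0.00058) and 0.02 in parental cells (adjusted p = 0.889).

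Both core genes of the cartwheel fell to below 50% of their untreated level. STIL (chr1:47250139-47314147, minus strand), the substrate through which PLK4 recruits the cartwheel, went from 82.3, 85.4 and 85.2 CPM to 44.1, 36.2 and 40.2 CPM in SDS22-degron cells. In parental cells it was at 101, 114 and 97.1 CPM untreated and at 94.1, 119 and 88.2 CPM treated. The untreated SDS22-degron libraries already lay below all parental libraries, and the treated ones lay far below both. The log2 fold changes were -1.07 (SE 0.10, adjusted p = 1.18e-07) and -0.05 (adjusted p = 0.726). SASS6 (chr1:100083563-100132955, minus strand), the structural unit of the cartwheel spokes, went from 22.6, 22.0 and 21.9 CPM to 11.1, 10.5 and 10.4 CPM. Its parental values of 29.5, 29.0 and 22.7 CPM untreated and 20.6, 30.3 and 23.8 CPM treated overlapped. The log2 fold changes of SASS6 were -1.05 (SE 0.14, adjusted p = 3.63e-06) in SDS22-degron and -0.12 (adjusted p = 0.496) in parental cells.

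CENPJ (chr13:24882284-24922889, minus strand), which controls centriole length, was at 36.2, 33.4 and 34.9 CPM in untreated and at 16.3, 21.2 and 18.3 CPM in treated SDS22-degron cells. Its parental values were 30.1, 32.4 and 33.0 CPM untreated and 25.6, 39.4 and 29.6 CPM treated. Treated parental cells thus spread to both sides of the untreated ones, with replicate 2 the highest library of all. The log2 fold changes were -0.91 (SE 0.13, adjusted p = 1.14e-05) and -0.01 (adjusted p = 0.945). CEP135 (chr4:55948871-56033363, plus strand), the pinhead protein of the cartwheel, was at 23.3, 21.5 and 22.0 CPM in untreated and at 16.3, 18.7 and 17.5 CPM in treated SDS22-degron cells. In parental cells it was at 20.1, 24.5 and 22.2 CPM untreated and at 22.0, 27.6 and 24.3 CPM treated. CEP135 moved least of the cartwheel and assembly genes, with log2 fold changes of -0.35 (SE 0.10, adjusted p = 0.00943) in SDS22-degron and 0.14 (adjusted p = 0.302) in parental cells.

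The 3 genes of the pericentriolar material fell by similar amounts. PCNT (chr21:46324122-46445769, plus strand) was at 84.5, 85.8 and 91.3 CPM in untreated and at 53.0, 63.9 and 69.4 CPM in treated SDS22-degron cells. Its parental values were 101, 88.9 and 96.0 CPM untreated and 75.4, 86.2 and 88.2 CPM treated. PCNT was the only one of the 10 genes whose parental groups did not overlap, and 3367 of the 16657 tested genes did not overlap in this direction. The log2 fold change of PCNT was -0.49 in SDS22-degron cells (SE 0.09, adjusted p = 0.000161) and -0.19 in parental cells (SE 0.09, adjusted p = 0.102). With the replicate number as a block, its parental value was -0.20 (adjusted p = 0.0507, edgeR). CDK5RAP2 (chr9:120388869-120580170, minus strand), which anchors and activates γ-tubulin complexes, went from 91.1, 90.4 and 93.2 CPM to 66.2, 68.5 and 64.7 CPM. In parental cells it was at 89.7, 89.1 and 83.9 CPM untreated and at 78.0, 92.4 and 83.7 CPM treated. With a tight spread in each SDS22-degron group, its log2 fold change of -0.46 had the smallest standard error of the 10 genes (SE 0.07, adjusted p = 1.88e-05), and the parental value was -0.05 (adjusted p = 0.635). NEDD1 (chr12:96907223-96953777, plus strand) went from 52.0, 52.3 and 54.7 CPM to 44.0, 39.7 and 38.5 CPM. Its parental values were 55.8, 59.6 and 49.5 CPM untreated and 47.5, 57.8 and 56.5 CPM treated. The SDS22-degron groups of NEDD1 were separate and the parental groups overlapped, with log2 fold changes of -0.38 (SE 0.09, adjusted p = 0.00151) and -0.03 (adjusted p = 0.832).

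The size of the decrease differed between the genes. Of the 45 pairs among the 10 genes, 21 had 95% confidence intervals of the log2 fold change that did not overlap in SDS22-degron cells. The interval of PLK4 (-1.63 to -1.09) lay apart from those of CEP192 (-0.51 to -0.20), CEP152, CEP135, PCNT, CDK5RAP2 and NEDD1, but overlapped those of STIL, SASS6 and CENPJ. STIL (-1.28 to -0.86) and SASS6 (-1.34 to -0.77) were in turn apart from CEP192, CEP135 (-0.56 to -0.13) and the 3 pericentriolar genes. Among the latter, PCNT (-0.68 to -0.30), CDK5RAP2 (-0.61 to -0.32) and NEDD1 (-0.56 to -0.19) could not be separated. CEP152 (-1.08 to -0.52) lay between both sets and was apart only from PLK4 and CEP192.

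**Figure D2:**
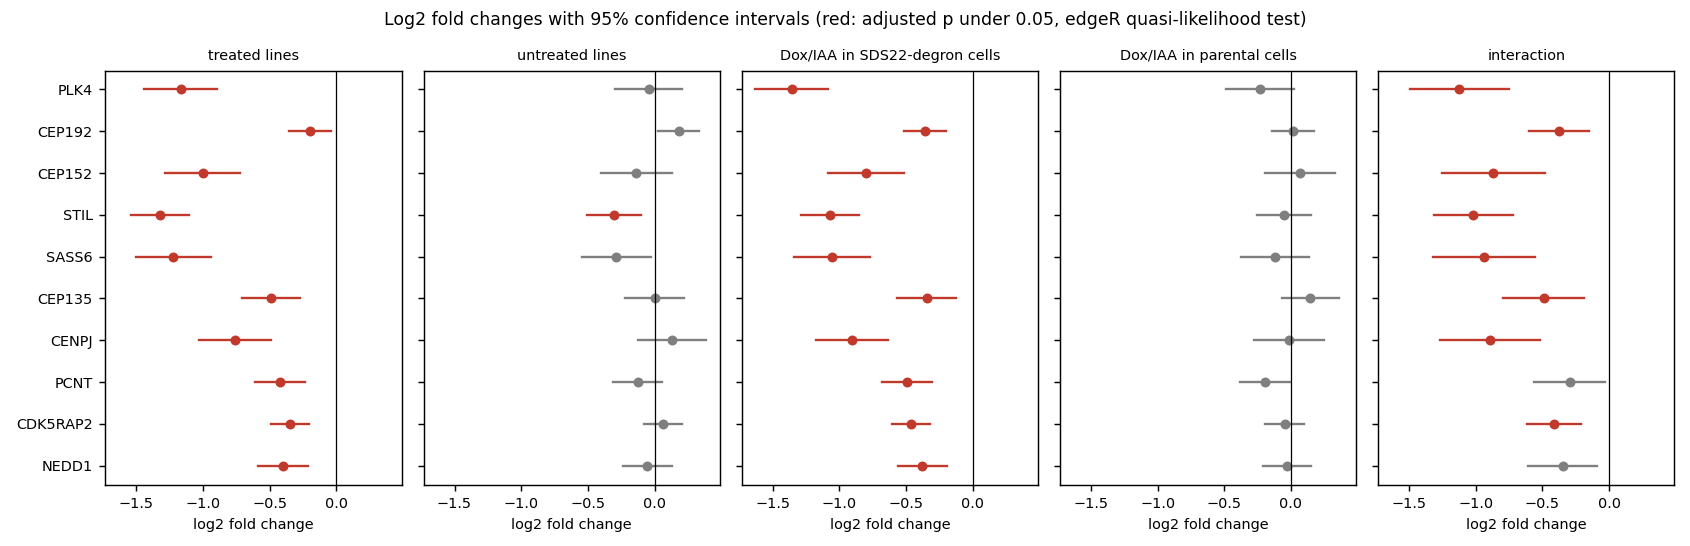
Log2 fold changes (horizontal axis) of the 10 genes (rows) with their 95% confidence intervals in the 5 comparisons; red marks genes whose adjusted p (quasi-likelihood test of edgeR) was under 0.05. All 10 genes are red with Dox/IAA in SDS22-degron cells and none with Dox/IAA in parental cells, where values run from -0.23 for PLK4 to 0.14 for CEP135.

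Dox/IAA itself was examined in the parental cells, where TIR1 is induced without a tagged protein. None of the 10 genes was called in either direction by edgeR (0 lower and 0 higher, against 15.7% and 15.9% of tested genes), and DESeq2 called 0 as well. PCNT was the only gene with an unadjusted p under 0.05, at 0.0402. The median log2 fold change of the 10 genes was -0.04. Treated parental replicate 2 gave the highest treated parental value for 9 of the 10 genes, PCNT being the exception. Without this library 1 of the 10 genes, PLK4, was called lower, against 15.1% of tested genes.

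The difference between the responses of the 2 lines was then tested directly, as the interaction of line and treatment. Its value was below 0 for all 10 genes, with a median of -0.68, and it was called lower for 8 of them and higher for 0, against 8.35% of tested genes called lower and 6.03% higher. The interaction was -1.12 for PLK4 (SE 0.18, adjusted p = 0.00036), -1.02 for STIL (SE 0.14, adjusted p = 0.000127) and -0.94 for SASS6 (SE 0.18, adjusted p = 0.00209). It was -0.89 for CENPJ (adjusted p = 0.00253), -0.87 for CEP152 (adjusted p = 0.00397), -0.49 for CEP135 (adjusted p = 0.0299), -0.41 for CDK5RAP2 (adjusted p = 0.00741) and -0.38 for CEP192 (adjusted p = 0.023). The interaction thus passed for every gene of the kinase and cartwheel steps, and for 1 of the 3 pericentriolar genes. These calls do not show that the steps differ, since the intervals of PCNT and NEDD1 overlapped those of CEP192 and CEP135. PCNT (-0.30, 95% interval -0.56 to -0.03, adjusted p = 0.125) and NEDD1 (-0.35, 95% interval -0.61 to -0.09, adjusted p = 0.0676) did not pass, and their intervals do not exclude a decrease of the size seen in CDK5RAP2. With the replicate number as a block, the adjusted p of the interaction was 0.066 for PCNT and 0.0502 for NEDD1 (edgeR). Without treated parental replicate 2 the number of genes called was 6, against 5.95% of tested genes called lower. CEP192 (adjusted p = 0.0652) and CEP135 (adjusted p = 0.0942) no longer passed.

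When the treated lines were compared with each other, all 10 genes were lower in SDS22-degron cells, against 23.1% of tested genes lower and 21.8% higher. Non-overlapping groups were found for 10 of 10 genes, against 27.2% of tested genes in this direction. This comparison shares its treated SDS22-degron libraries with the one above. The log2 difference was -1.32 for STIL (SE 0.10, adjusted p = 1.65e-08), -1.22 for SASS6 (SE 0.13, adjusted p = 9.65e-07), -1.17 for PLK4 (SE 0.13, adjusted p = 1.14e-06) and -1.004 for CEP152 (SE 0.13, adjusted p = 8.57e-06). These 4 genes also passed the cut-off that the study used for differential expression, an unadjusted p under 0.05 and a fold change above 1 on the log2 scale, as did 3.38% of tested genes in this direction. CENPJ followed at -0.76, CEP135 at -0.49, PCNT at -0.42, NEDD1 at -0.40 and CDK5RAP2 at -0.35. CEP192 was the smallest at -0.20 (SE 0.08, adjusted p = 0.0416) and was not called without treated parental replicate 2 (-0.14, adjusted p = 0.179). Its adjusted p ran from 0.0296 to 0.179 over all alternatives, and the call was lost in 14 of 23. The comparison of the treated lines also contains the difference between the untreated lines, which ran from -0.30 to 0.18 over the 10 genes. For the 4 genes past the cut-off it was -0.30 (STIL), -0.29 (SASS6), -0.04 (PLK4) and -0.14 (CEP152). With Dox/IAA in SDS22-degron cells, CEP152 (-0.80) did not pass this cut-off.

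Between the untreated lines 1 of the 10 genes was called. STIL was lower in untreated SDS22-degron cells, with a log2 difference of -0.30 (SE 0.10, adjusted p = 0.0251), and none was higher, against 15% of tested genes lower and 13.2% higher. SASS6 had a value of -0.29 that did not pass (adjusted p = 0.0895), and CEP192 one of 0.18 (adjusted p = 0.0799). The untreated groups did not overlap for STIL and SASS6, with SDS22-degron cells lower, and for CENPJ and CDK5RAP2, with SDS22-degron cells higher. Of the 16657 tested genes, 3651 did not overlap on the lower side and 3590 on the higher side. STIL and SASS6 both lie on chromosome 1, whose 1659 tested genes had a median log2 difference of -0.13 between the untreated lines, against 0.0034 for all tested genes. The part of the chromosome in their difference was not tested. STIL was not called without untreated parental replicate 2 (-0.21, adjusted p = 0.139), nor without untreated SDS22-degron replicate 1 (adjusted p = 0.0822), 2 (adjusted p = 0.0595) or 3 (adjusted p = 0.0575).

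Since duplication is tied to the cell cycle, lists of 20 S phase genes and 20 G2/M genes were read beside the 10 genes. With Dox/IAA in SDS22-degron cells, 20 of 20 S phase genes and 20 of 20 G2/M genes were lower, against 25.5% of tested genes, with median log2 fold changes of -1.19 and -1.40. Their summed level went from 3523 to 3615 CPM untreated to 1436 to 1841 CPM treated for S phase genes, and from 4038 to 4111 CPM to 1396 to 1658 CPM for G2/M genes. The treated mean was 44.8% of the untreated mean for S phase and 37.4% for G2/M genes, and 63.4% for the 10 centriole and centrosome genes. In parental cells, 8 of 20 S phase genes (40.0%) and 3 of 20 G2/M genes (15%) were lower, against 15.7% of tested genes, so that the G2/M share was near the background. With the replicate number as a block, which pairs the parental libraries, these counts were 9 and 8 of 20, against 17.9% of tested genes. In the interaction 18 S phase and 20 G2/M genes were lower, against 8.35%. Replicate 2 was the highest parental library in both conditions. For S phase genes it was at 4306 CPM untreated, against 3853 and 3665 CPM, and at 3644 CPM treated, against 3043 and 3065 CPM. For G2/M genes it was at 4008 CPM untreated, against 3389 and 3534 CPM, and at 3906 CPM treated, against 2781 and 2962 CPM. Within each of the 3 same-numbered parental pairs both sums were lower after treatment, at 79.0% to 84.6% of the untreated library for S phase and 82.1% to 97.5% for G2/M genes. The part of the cell cycle in the change of the 10 genes was not tested.

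**Figure D3:**
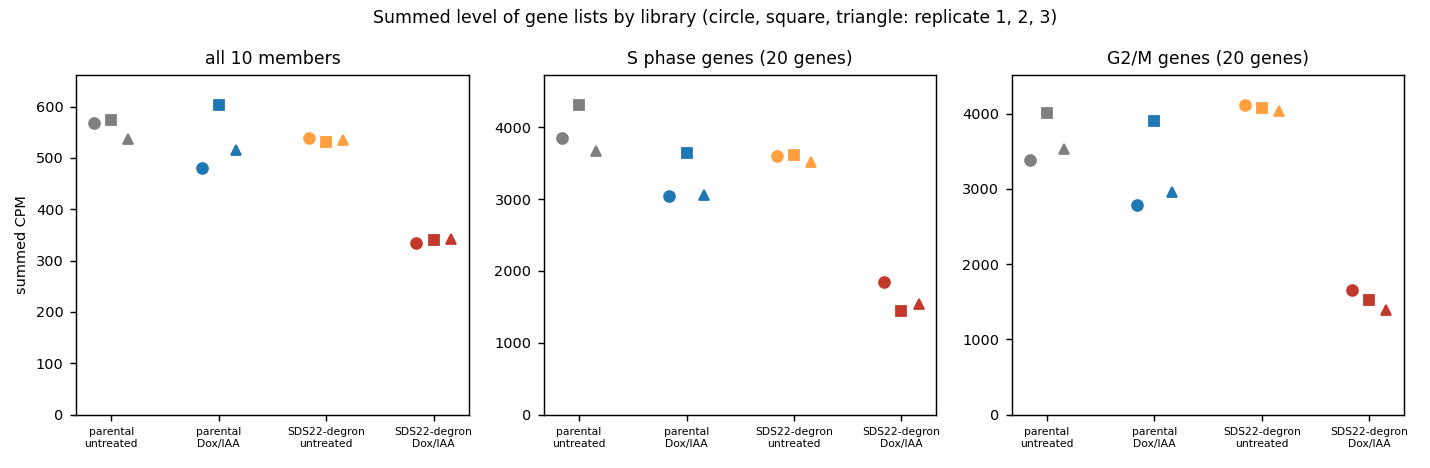
Summed TMM-normalized CPM (vertical axes, from 0) of the 10 centriole and centrosome genes, 20 S phase genes and 20 G2/M genes in each library, by group (horizontal axis); circles, squares and triangles are replicates 1, 2 and 3. Treated SDS22-degron libraries lie between 335 and 342 CPM for the 10 genes, and all other libraries at 481 CPM or more.

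Levels were compared between genes per length, as CPM divided by length in kilobases (RPKM), from the gene lengths of the deposited table. In untreated SDS22-degron cells PLK4 (12.3 ± 0.2 RPKM, SD, n = 3), NEDD1 (11.9 RPKM) and STIL (11.6 RPKM) were the most abundant and overlapped each other. CDK5RAP2 (9.08 RPKM) and PCNT (7.48 RPKM) came next, each apart from its neighbours, then CEP192 (6.23 RPKM) and CENPJ (5.998 RPKM), which overlapped, and SASS6 (5.58 RPKM). CEP152 (2.82 RPKM) and CEP135 (2.58 RPKM) were the lowest and overlapped. After Dox/IAA this order changed, as the genes at its top fell by different amounts. NEDD1 (9.13 RPKM) was then the highest and CDK5RAP2 (6.59 RPKM) the next, both apart from the rest. STIL (5.51 RPKM), PCNT (5.32 RPKM), CEP192 (4.86 RPKM) and PLK4 (4.78 RPKM) formed a series in which neighbours overlapped. CENPJ (3.20 RPKM), SASS6 (2.68 RPKM), CEP135 (2.03 RPKM) and CEP152 (1.62 RPKM) followed without overlap. In parental cells STIL was the highest before (14.3 RPKM) and after treatment (13.8 RPKM), and CEP135 had the lowest mean (2.57 and 2.85 RPKM) but overlapped CEP152 in both groups. In untreated parental cells PLK4 (12.6 RPKM) and NEDD1 (12.3 RPKM) came after STIL and overlapped, and after treatment neighbours overlapped from STIL through NEDD1 and PLK4 to CDK5RAP2. The highest gene exceeded the lowest 4.76-fold to 5.62-fold in the 4 groups.

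**Figure D4:**
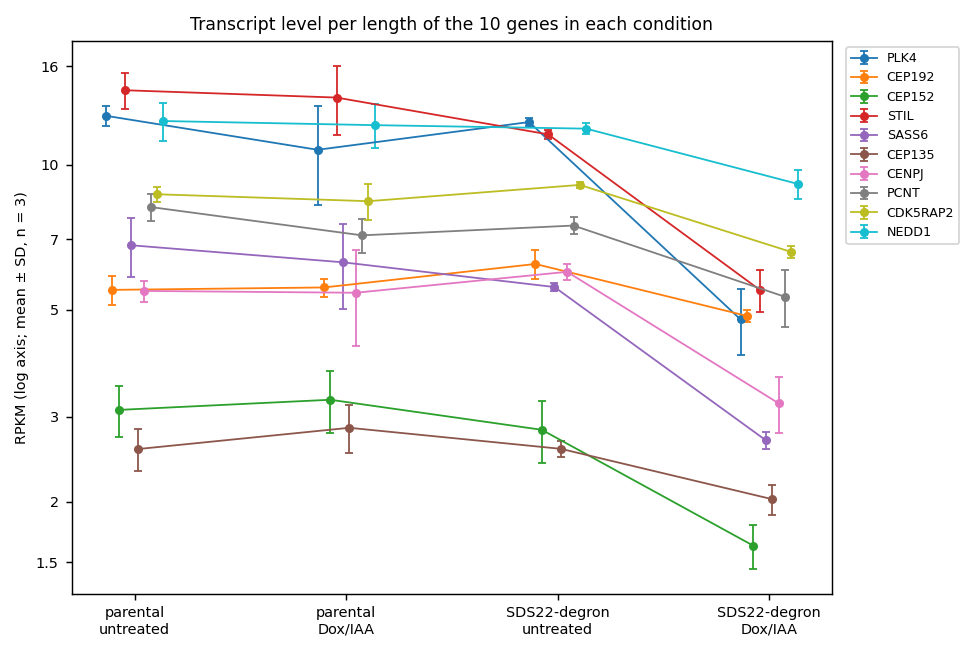
Mean RPKM ± SD (n = 3; vertical log axis) of the 10 genes in the 4 groups (horizontal axis); lines join the values of a gene. All lines drop from untreated to treated SDS22-degron cells by different amounts, so that PLK4 goes from 12.3 to 4.78 RPKM and NEDD1 from 11.9 to 9.13 RPKM. Not every line is level before that, as STIL is at 14.3 RPKM in untreated parental and 11.6 RPKM in untreated SDS22-degron cells.

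Patterns over the 12 libraries were compared by Pearson's r of log2 CPM, as a description, since the libraries share their groups. The tested gene most like PLK4 among 12402 genes was UBE2C (r = 0.992), which encodes a ubiquitin-conjugating enzyme of the anaphase-promoting complex. STIL was most like the bromodomain gene ATAD2 (r = 0.993), SASS6 like SHCBP1 (r = 0.992), CENPJ like the helicase gene PIF1 (r = 0.985) and CDK5RAP2 like EZH2 (r = 0.989), the methyltransferase of Polycomb repressive complex 2. CEP152 was most like CHTF18 (r = 0.966), which encodes a subunit of a clamp loader at replication forks. NEDD1 was most like another centriole gene, CEP128 (r = 0.983), which encodes a protein of the subdistal appendages. PCNT was most like the integrin gene ITGA6 (r = 0.97), CEP135 like RBM45 (r = 0.938) and CEP192 like ZNF37BP (r = 0.917). Among the 10 genes themselves, STIL and SASS6 were the most alike (r = 0.981), and PLK4 was nearest to STIL (r = 0.955). CEP192 stood furthest from the others, with r = 0.545 to CEP135 and at most 0.812, to CDK5RAP2.

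The other genes of the organelle were read from a list of 88, of which 86 were tested. With Dox/IAA in SDS22-degron cells 50 of these (58.1%) were lower and 10 (11.6%) higher, against 25.5% and 26.0% of tested genes, with a median log2 fold change of -0.34, and the mean of their summed level was 83.0% of the untreated mean. In parental cells 9 (10.5%) were lower and 4 (4.65%) higher, below the 15.7% and 15.9% of all tested genes, with a median of -0.06. With the replicate block these counts were 12 and 7, against 17.9% and 18.0%. The interaction was lower for 24 (27.9%) and higher for 1 (1.16%), against 8.35% and 6.03%, with a median of -0.25, and for 30 and 3 with the block, against 10.4% and 8.39%. Between the treated lines 44 (51.2%) were lower and 7 (8.14%) higher, against 23.1% and 21.8%, and with the block 48 and 7, against 24.8% and 23.4%. Between the untreated lines 16 (18.6%) were lower, near the background of 15%, and 4 (4.65%) higher, against 13.2%. Without treated parental replicate 2, the number lower in parental cells was 17, against 15.1% of tested genes.

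The groups of this list are given by their counts in SDS22-degron cells, against a background of 25.5% of tested genes lower and 26.0% higher, and whether the groups differ from each other was not tested. All 3 regulators were lower in treated SDS22-degron cells, namely PLK1 (-1.52, adjusted p = 1.01e-08), AURKA (-1.51, adjusted p = 2.53e-08) and NEK2 (-0.99, adjusted p = 2.33e-06), the kinases of centrosome maturation and separation. Their interactions were -1.33, -1.38 and -1.06, each with an adjusted p under 0.05. NEK2 was named for completeness after its values were seen. Of 12 partners of duplication, 6 were lower and 2 higher. ASPM, whose protein acts at spindle poles, went from 102 ± 12.5 to 39.8 ± 5.8 CPM (SD, n = 3), a log2 fold change of -1.36 (adjusted p = 3.91e-07). BTRC, which encodes a subunit of the ligase that degrades PLK4, was higher in both lines after treatment, by 0.25 (adjusted p = 0.00491) in SDS22-degron and 0.20 (adjusted p = 0.0349) in parental cells, with an interaction of 0.05 (adjusted p = 0.778).

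Of 22 genes of centriole length and structure, 14 were lower and 2 higher in treated SDS22-degron cells. POC1A, a protein of the centriole wall, had a log2 fold change of -0.79 (adjusted p = 1.11e-05), and it was already lower in the untreated SDS22-degron line (-0.43, adjusted p = 0.00454). CETN2, which encodes a centrin of the centriole lumen, moved the other way. It was at 30.8 ± 2.4 CPM in untreated and 36.8 ± 3.7 CPM in treated SDS22-degron cells, against 36.2 ± 2.4 and 30.9 ± 3.3 CPM in parental cells. Its interaction of 0.49 (SE 0.14, adjusted p = 0.0231) was the only one of the 86 genes called higher without the block. In parental cells its fold change was called with the block (-0.24, adjusted p = 0.0466) and not without it.

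Of 18 genes of the pericentriolar material and γ-tubulin complexes, 14 were lower and 2 higher, and the interaction was lower for 8, against 8.35% of tested genes. HAUS5, a subunit of the augmin complex that branches spindle microtubules, had a log2 fold change of -0.74 in SDS22-degron cells (adjusted p = 2.23e-05) and an interaction of -0.77 (adjusted p = 0.00247). TUBG2, the second γ-tubulin gene, was higher after treatment in both lines, by 0.74 (adjusted p = 4.97e-05) in SDS22-degron and 0.43 (adjusted p = 0.0158) in parental cells, with an interaction of 0.31 (adjusted p = 0.253).

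Of 13 appendage genes, 6 were lower and 2 higher, with a median of only -0.07. FBF1, of the distal appendages, was low throughout and went from 5.15 ± 0.40 to 2.68 ± 0.41 CPM (-0.94, adjusted p = 0.000849), with an interaction of -1.27 (adjusted p = 0.00411). CCDC120 was higher after treatment in SDS22-degron (0.95, adjusted p = 3.46e-06) and in parental cells (0.66, adjusted p = 0.000764). Of 13 satellite genes, 5 were lower and 1 higher, against 25.5% and 26.0% of tested genes. In these, 0 had an interaction that passed, against 8.35% of tested genes called lower and 6.03% higher. SSX2IP was lower in the SDS22-degron line before treatment (-0.69, adjusted p = 6.84e-06) and fell by a further 0.26 on the log2 scale with it (adjusted p = 0.0141), whereas OFD1 was higher after it (0.35, adjusted p = 0.0117). Of 5 tested genes of the linker between the centrosomes, 2 were lower and 1 higher, and none had an interaction that passed, against the same shares. CNTLN (-0.18, adjusted p = 0.168) and CEP68 (0.03, adjusted p = 0.832) did not pass in SDS22-degron cells, and CEP68 was lower in treated parental cells (-0.35, adjusted p = 0.012).

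**Figure D5:**
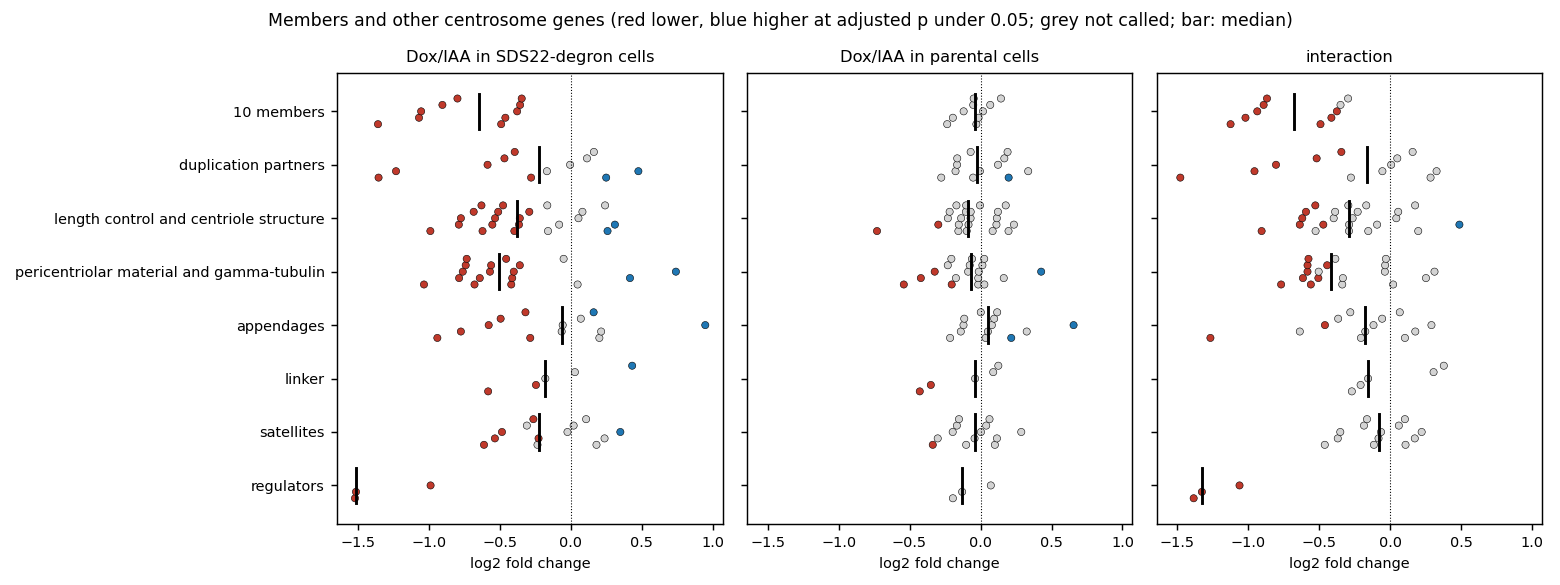
Log2 fold changes (horizontal axis) of the 10 members and of 86 other centrosome genes by group of the list (rows), with Dox/IAA in SDS22-degron cells, in parental cells and in the interaction; each point is a gene, red lower and blue higher at an adjusted p under 0.05, grey not called, and bars are medians. The median of the 10 genes is -0.65 in SDS22-degron and -0.04 in parental cells, and that of the 13 appendage genes is -0.07 and 0.05.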

How the data were processed

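Poly-A selected RNA was sequenced as stranded single reads in 12 libraries. The table deposited by the authors gives raw read counts per gene, with the position, the length and the GC content (as a percent) of each gene, on GRCh38. Per the labels, cutadapt 1.15, Bowtie2 2.3.3.1, STAR 2.5.2b, SAMtools 1.5 and featureCounts 1.5.3 were used; their settings are not given in the sources used here. The number of unmapped columns was 0.

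Genes were filtered with filterByExpr (minimum count 10), scaled by TMM and fitted with edgeR 4.0.16 (R 4.3.3) as 4 group means. P-values of the quasi-likelihood F test were adjusted (Benjamini-Hochberg, 16657 genes), with a threshold of 0.05. Standard errors and 95% intervals follow from the F statistic. RPKM used the deposited lengths. Alternatives were the likelihood ratio test of the study, DESeq2 1.42.0, other scalings and filters, a GC correction, a replicate block and each library left out.

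All 10 members are named, with, for each group of the centrosome list, the lowest and highest gene between the treated lines. Members and lists were chosen with earlier results of these data known. For patterns over libraries, genes needed a mean of at least 5 CPM (prior count 2). The procedure was tested on simulated data.

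The labels give the replicate numbers 1 to 3 in each group, without saying what a number shares. Whether they pair libraries was checked by the correlation of deviations from the group means. All 3 same-numbered pairs were over 0.1 between untreated and treated parental cells (0.124 to 0.246) and between the treated lines (0.101 to 0.138), so the numbers were taken as pairs there. They were not between untreated and treated SDS22-degron cells (-0.00926 to 0.0953) or the untreated lines (0.0584 to 0.118).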

Additional observations from a re-analysis of the deposited data

Results flagged for a closer look

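The response to Dox/IAA differed between the SDS22-degron and the parental line for 8 of the 10 genes, by the interaction term of edgeR's quasi-likelihood test adjusted over all tested genes. The log2 difference between the responses was -1.12 for PLK4, -1.02 for STIL, -0.94 for SASS6, -0.89 for CENPJ, -0.87 for CEP152, -0.49 for CEP135, -0.41 for CDK5RAP2 and -0.38 for CEP192. PCNT (-0.30) and NEDD1 (-0.35) did not pass. With 3 libraries per group, single libraries were not tested as outliers.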

How the results depend on the processing

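All 10 genes were lower with Dox/IAA in SDS22-degron cells in each alternative test, scaling and filter and with each library left out. The share of tested genes called lower ran from 13.7% to 27.5% over these settings. Groups that did not overlap numbered 10 in both comparisons under each scaling. The cut-off of the study, which needs a log2 fold change above 1, left 3 of the 10 genes with Dox/IAA in SDS22-degron cells, 4 between the treated lines, 2 in the interaction and 0 between the untreated lines. Of the 16657 tested genes it left 669, 563, 409 and 216 on the lower side, in the same order. Of the other centrosome genes it left 5, 7, 5 and 0 in that order. With Dox/IAA in parental cells it left 0 of them, against 132 of all tested genes on the lower side. In parental cells, 1 of the 10 genes (PCNT) was called lower with a GC correction, against 18.3% of tested genes. With the replicate block and GC correction together it was 1 gene, against 20.3%. Leaving out a library gave 0 to 1 (PLK4, without treated parental replicate 2). The other centrosome genes called lower there numbered 18 of 86 with block and GC correction, near the background of 20.3%. With a library left out they numbered 6 to 17, against 11.6% to 15.5% of tested genes. Between the untreated lines 2 of the 10 genes were called lower without a filter, against 8.68% of tested genes. With only the groups compared it was 2 genes, against 16.1%. Upper quartile scaling gave 2 calls, STIL lower and CEP192 higher (0.21, adjusted p = 0.0382), against 12.7% and 16.2% of tested genes. With a library left out it was 0 to 2 calls, against 11.2% to 15.7% of tested genes lower and 9.48% to 14.3% higher. CEP192 was called higher without untreated parental replicate 1 (0.24, adjusted p = 0.0385), beside STIL lower, and alone without untreated SDS22-degron replicate 3 (0.24, adjusted p = 0.0394). SASS6 was called lower beside STIL without treated parental replicate 2 or untreated parental replicate 3. The interaction was called for 6 to 9 genes with a library left out, against 5.95% to 10.5% of tested genes called lower. Scaling by library size alone moved the share of lower calls among all calls in parental cells from 49.5% to 35.9%. It also turned the parental values of CDK5RAP2 (0.01168), CENPJ (0.04656), NEDD1 (0.0304) and STIL (0.008922), none of them called, as did upper quartile scaling for CENPJ (0.01). CEP135 between the untreated lines was -0.0001666 in the likelihood ratio test and -0.01168 without a filter. Leaving out a library turned uncalled values only, which ran in parental cells from -0.1129 to 0.01187 for CDK5RAP2, -0.2035 to 0.1194 for CENPJ, -0.04547 to 0.1709 for CEP152, -0.02528 to 0.06438 for CEP192, -0.1004 to 0.05824 for NEDD1, -0.2814 to 0.00573 for SASS6 and -0.1891 to 0.03362 for STIL. Between the untreated lines they ran from -0.05942 to 0.09416 for CEP135, -0.1243 to 0.02897 for NEDD1 and -0.06386 to 0.01519 for PLK4. The cause of these changes was not tested.

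With the replicate number as a block, the genes called numbered 10 in SDS22-degron cells, 0 in parental cells, 8 in the interaction, 10 between the treated and 1 between the untreated lines, and the block changed no call of the 10 genes. The shares of tested genes called lower were 26.9%, 17.9%, 10.4%, 24.8% and 17% in the same order. In the 2 comparisons where the numbers did not pair all samples, the block also changed counts of the other centrosome genes. It gave 51 lower and 12 higher in SDS22-degron cells, against 26.9% and 27.7% of tested genes. Between the untreated lines it gave 17 and 5, against 17% and 15.3% of tested genes. A library correlated best with its own number in 26 of 36 looks, and 4 of 12 libraries did so in all 3 other groups.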
